A study of Drosophila melanogaster with 4 samples.

Results

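The regions described here are the peaks called for Atonal on the euchromatic part of the X chromosome, meaning those on X whose start lies below 20.4 Mb. They numbered 343 of the 6065 peaks in the list, and a further 192 peaks lay nearer to the X centromere. Peaks were chosen by chromosome and start alone, with no use of height, width or significance. The sequence names match Release 5 of the fly genome, and no genome or annotation of that release was used here, so peaks are given by position and no gene, exon or base sequence is assigned to them.

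Atonal is a proneural transcription factor of the basic helix-loop-helix class. In the eye disc, the larval epithelium that becomes the compound eye, it is made at the morphogenetic furrow and specifies the R8 photoreceptor, which then recruits the other photoreceptors. It pairs with the broadly expressed protein Daughterless, and the pair binds E-box motifs in enhancers. The X chromosome is present as a single copy in males and as a pair in females, and male cells raise its transcription through the dosage compensation complex. The labels do not give the sex of the larvae.

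Chromatin was immunoprecipitated from third-instar (L3) eye discs and sequenced (ChIP-seq). All libraries came from the knock-in IMAGO line ato:GFP, in which Atonal carries green fluorescent protein, kept at 25 degrees without treatment. The 2 ChIP libraries used anti-GFP antibody and the 2 input libraries used none, and both kinds share the genotype, so no library lacks the tagged protein. Discs were pooled (800 discs of 400 larvae, per the labels), and the labels do not say whether numbered libraries came from separate collections. The processed data are 1 peak list with no value for any single library, so that replicate error cannot be given for any value and the depth of the libraries is unknown. Intervals and p-values cover counting error over peaks only, and neighbouring peaks are not independent.

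The density of peaks on X did not differ detectably from that of the autosomal interiors, while that of merged regions was lower. The 343 peaks gave 16.8 peaks per Mb, against 17.3 per Mb for the 1529 peaks in the interiors of the 4 large autosomal arms, which leave out the 2 Mb beside each centromere. The ratio was 0.972 (95% interval 0.862 to 1.09, two-sided exact binomial test, p = 0.657 after adjustment over 6 counts). Against single arms it ran from 0.880 for 2R to 1.08 for 3L, and none of the 4 passed the test (exact binomial, adjusted p from 0.362 to 0.880). With peaks merged within 500 bp X was lower than each of the 4, at 0.726 for 2L, 0.793 for 2R, 0.834 for 3L and 0.764 for 3R (exact binomial, adjusted p from 0.00106 to 0.0461), so that the direction against 3L turned. When peaks no more than 500 bp apart were merged, X kept 220 regions at 10.8 per Mb and the autosomal interiors 1226 regions at 13.9 per Mb. That ratio of 0.777 (0.670 to 0.898) passed the exact binomial test (adjusted p = 0.00136), and X had the lowest density of regions of the 5 arms, whose others lay between 12.9 and 14.9 per Mb. The call held under several other settings by the exact binomial test. The ratio was 0.689 with 1 Mb and 0.805 with 3 Mb left out beside the autosomal centromeres. It was 0.730 with merging within 1000 bp, 0.770 without the 4-peak cluster described below and 0.767 without regions of 5 or more peaks. The call failed at or above the list's median score of 37, where the ratio was 1.13 (exact binomial test, adjusted p = 0.323). Merging only touching peaks gave 0.972 (exact binomial test, adjusted p = 0.657). No peaks touch, so that setting merged nothing and repeats the ratio for all peaks. The comparison of all peaks depended on the limits chosen. With 1 Mb in place of 2 Mb left out beside the autosomal centromeres the ratio was 0.818 (exact binomial test, adjusted p = 0.00108), and with 3 Mb it was 1.04, and 1.24 against 2R alone (adjusted p = 0.0367). Among all peaks at or above the median score, X held 176 and was the denser, with a ratio of 1.44 (1.20 to 1.71, exact binomial test, adjusted p = 3.65e-04). The score follows −log10 q, which at equal fold rises with the ChIP and control levels described below. Median ChIP levels were 76.0 on X and 51.0 in the autosomal interiors, so ratios under a score limit do not compare enrichment.

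**Figure D1:**
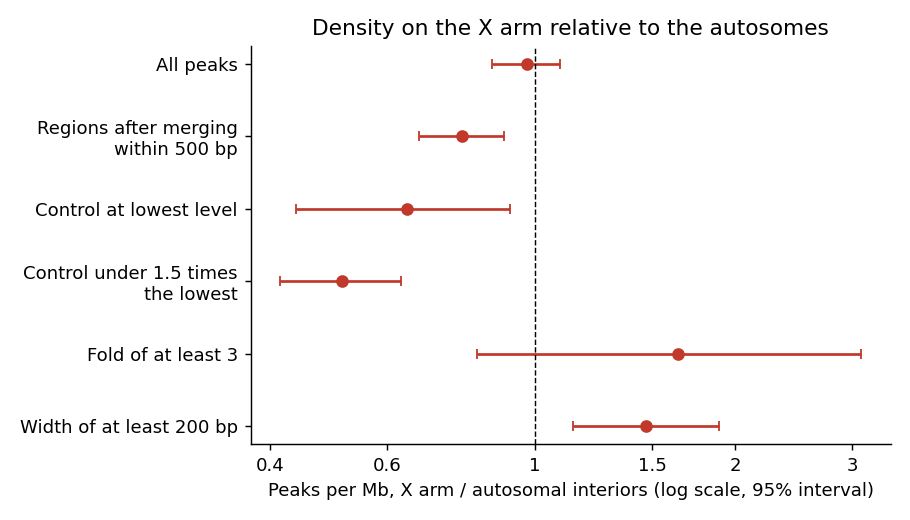
Density on the X arm divided by that in the pooled autosomal interiors for 6 counts (points) with exact 95% intervals (bars) on a log axis, with equality dashed. The ratio for all peaks lies near 1, those for merged regions and for peaks whose control level was at or near the lowest in the list lie below 1, and that for wide peaks lies above it.

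Each peak's deposited fold and p-value imply the ChIP and control levels behind them, and the control level is what the peak was compared with. The lowest control level, called the floor here, was shared by 320 peaks of the list, and other levels are given as multiples of it. On X, 35 of 343 peaks were at the floor (10.2%), against 15.4% of the autosomal interior peaks and 5.28% of all peaks listed. Levels below 1.5 times the floor, called low control here, occurred at 102 X peaks (29.7%, exact 95% interval 24.9% to 34.9%), against 56.4% in the autosomal interiors and 25.9% in the whole list. By arm, the autosomal share ran from 44.8% on 2R to 61.8% on 3R, so that X was lower than each. The density of these low-control peaks on X was 5.0 per Mb against 9.77 per Mb, a ratio of 0.512 (0.413 to 0.629, exact binomial test, adjusted p = 2.59e-11). At the lowest level the ratio was 0.642 (0.437 to 0.919, exact binomial test, adjusted p = 0.0189), although 2R, at 1.73 per Mb, lay next to X at 1.72. At or above the median score neither difference passed the test, and the ratios were 0.835 and 1.20.

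The median control level at X peaks was 2.2 times the floor (95% interval from order statistics 2.04 to 2.40). It was 1.25 on 2L, 1.28 on 3L and 1.27 on 3R, and their intervals, which reached 1.44 at most, did not overlap that of X. On 2R it was 1.92 (1.48 to 2.17), and this interval overlapped that of X. The 2R bin from 2 to 3 Mb, beside the stretch left out, held 120 of the 364 2R peaks. Their median control was 3.20 times the floor and 11 had low control. The 2R medians and shares without this bin were not computed. Levels of at least 2 times the floor occurred at 57.1% of the X peaks and at 30.0% to 49.5% of those on the autosomal arms. X thus held a smaller share of low-control peaks than the autosomal interiors, while that share was near the 25.9% of the whole list.

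**Figure D2:**
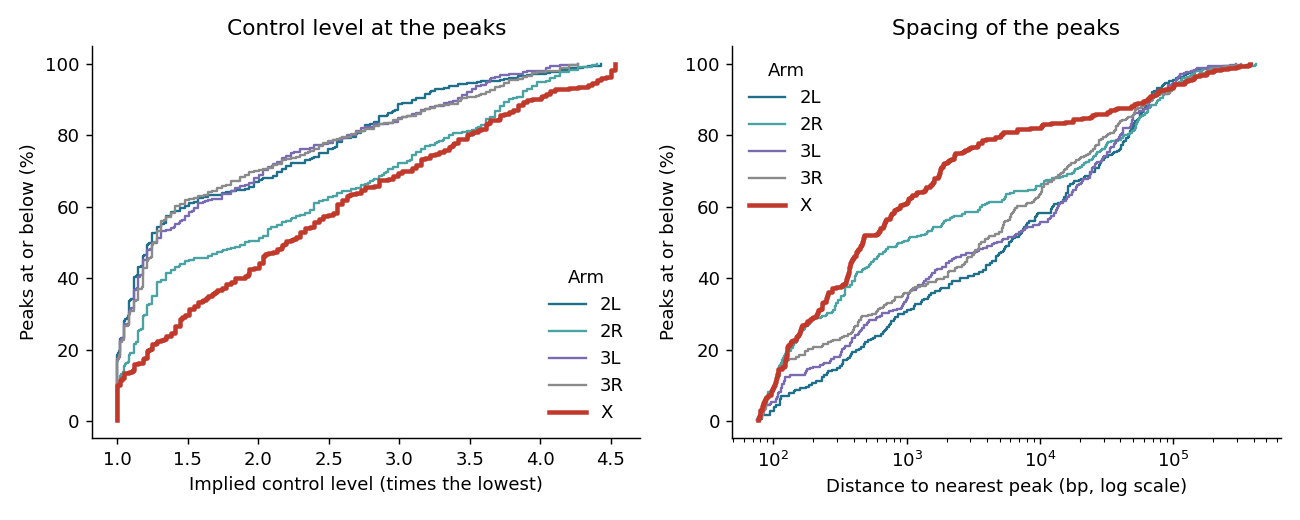
Left, share of peaks at or below each implied control level, and right, share at or below each distance to the nearest other peak (log axis), for X (thick) and the interiors of 2L, 2R, 3L and 3R. The X curve lies to the right of the autosomal ones over most of the left panel (median 2.2 times the floor) and reaches 60.9% at 1000 bp in the right panel, with 2R the nearest to it.

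X peaks lay close together. The median distance to the nearest other peak was 465 bp (380 to 686), against 921 bp (564 to 1876) on 2R and 3751.5 to 6008 bp on the other 3 arms. The intervals of X and 2R overlapped, and those of the other arms started at 2092 bp or more. Another peak within 1000 bp was found for 209 X peaks (60.9%, exact interval 55.5% to 66.1%), against 31.0% to 50.5% by autosomal arm. Split by control level, the share was 69.7% of the 241 X peaks at 1.5 times the floor or above and 69.2% of the 666 such autosomal peaks, when distances were taken within that class. Among low-control peaks it was 22.5% on X and 9.04% on the autosomes. The autosomal arms ranged from 4.17% to 13.5%, and X was at 20.4% with the 4-peak cluster near 2.7 Mb left out. No test of spacing was made, since neighbouring peaks are not independent.

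Of the 220 merged X regions, 164 held 1 peak, 28 held 2 and 15 held 3. The 6 regions with 5 or more peaks held 50 peaks, 14.6% of those on X against 8.18% in the autosomal interiors. The fullest, X 3346 to 12741 near the tip of the chromosome, held 12 peaks between 72 and 1464 bp in width and between 1.62 and 1.93 in fold. It lies in a stretch of 20 peaks between 847 and 18858 whose control was nowhere below 3.56 times the floor. The 3 neighbouring regions between 13939871 and 13955419 held 22 peaks, of which 18 were at least 200 bp wide. The 22 covered 61.8% of the 15549 bp, at folds from 1.68 to 2.28 (median 1.74 over the 22) and with control at 2.73 to 4.53 times the floor. A region of 9 peaks at X 6919593 to 6923628 was alike, with folds from 1.51 to 1.85 and control at 2.05 to 3.81 times the floor. The widest peaks outside the cluster, X 7895 to 9358 (1464 bp, 1.70-fold) and X 13953444 to 13954447 (1004 bp, 1.73-fold), belong to these stretches. The next widest outside the cluster, X 6822 to 7815 (994 bp, 1.73-fold), lies there too. No peak of these 5 regions had a low control level, and their folds lay between 1.51 and 2.28, with 8 of the 22 peaks near 13.9 Mb above the X median of 1.89.

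The region X 9517522 to 9520205 was of another kind. Its 7 peaks were 69 to 141 bp wide, with folds of 2.29 to 3.02. Of these, 4 had low control (1.00, 1.19, 1.00 and 1.00 times the floor, and folds of 2.86, 2.33, 2.75 and 3.02). The other 3, at 2.17 to 3.35 times the floor, stood among them, so that control levels changed by over 3 times within 2684 bp.

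Between such groups lay long stretches with no peak. The longest, from 6924974 to 8188199, measured 1263 kb, and the next, from 8189589 to 8928117, 739 kb. The longest on the autosomal interiors was 808 kb, on 2R. The next X stretches were 696, 610 and 572 kb. In full bins of 1 Mb, X held from 0 to 43 peaks with a median of 16.0. Its fullest bins were 0 to 1 Mb (43 peaks) and 13 to 14 Mb (37), and 3 bins had fewer than 5 peaks: 5 to 6 Mb (2), 7 to 8 Mb (0) and 8 to 9 Mb (4). Of the autosomal arms only 2R had such a bin, 1 of 19. The variance of the bin counts was 7.78 times their mean on X, 2.62 to 4.82 on 2L, 3L and 3R, and 33.5 on 2R. The fullest 2R bin, from 2 to 3 Mb, held 120 peaks. For merged regions the variance was 3.44 times the mean on X, 2.01 to 2.46 on 2L, 3L and 3R and 8.58 on 2R. Counts thus varied more along the arms than the exact binomial test assumes. Its p-values for densities are therefore likely too small and its intervals too narrow.

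Control and spacing also varied along the arm. From 15 to 20.4 Mb there were 53 peaks at 9.81 per Mb, and 29 of them (54.7%, exact interval 40.4% to 68.4%) had a low control level. The share was 32.7% of 110 peaks from 0 to 5 Mb, 22.2% of 63 from 5 to 10 Mb and 19.7% of 117 from 10 to 15 Mb. The intervals for 5 to 10 Mb (12.7% to 34.5%) and 10 to 15 Mb (12.9% to 28.0%) did not overlap that from 15 Mb on, whereas that for 0 to 5 Mb (24.1% to 42.3%) did. Wide peaks of at least 200 bp made up 11.3% of the peaks from 15 Mb on and 22.2% to 30.9% before it. The last member, X 19927465 to 19927630 (2.28-fold), was followed by a gap across the limit, since the first peak beyond it was X 20708001 to 20708114 (1.91-fold). The limit at 20.4 Mb therefore divided no group of peaks.

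Wide peaks were more frequent on X. At least 200 bp were reached by 86 X peaks (25.1%, exact interval 20.6% to 30.0%), against 16.5% in the autosomal interiors and 19.5% in the whole list. Their density was 4.22 per Mb against 2.86 per Mb, a ratio of 1.47 (1.14 to 1.89, exact binomial test, adjusted p = 0.00539). On 2R it was 4.31 per Mb, above X, and on the other 3 arms 2.00 to 2.83. The 2R value includes the bin from 2 to 3 Mb, with 120 of the 364 2R peaks, and was not computed without it. The call for wide peaks on X did not hold without the crowded stretches. After leaving out regions of 5 or more peaks, the ratio was 1.13 (exact binomial test, adjusted p = 0.419), and with 1 peak kept for each region it was 0.883 (adjusted p = 0.692). The ratio was 1.11 (exact binomial test, adjusted p = 0.420) when only 1 Mb was left out beside each autosomal centromere. With 3 Mb left out it was 1.73 (exact binomial test, adjusted p = 1.29e-04). A width limit of 300 bp gave 2.15 (exact binomial test, adjusted p = 2.86e-05). Most wide X peaks were over raised control: 56 of 86 (65.1%) had a control level of at least 3 times the floor, against 103 of 253 (40.7%) on the autosomes. Only 9 of the 86 wide X peaks (10.5%) had a low control level, against 85 of 253 (33.6%) on the autosomes. Of the 9 on X, 4 were those of the cluster.

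The median width over all X peaks was 126 bp (117 to 137), and it was 108 to 117 bp by autosomal arm. Widths ran from 69 bp, the smallest in the list, to 1567 bp. Peaks under 100 bp made up 37.3% on X and 38.0% to 43.2% by autosomal arm.

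Fold on X was low for most peaks and close to that of the autosomes. The median was 1.89 (1.84 to 1.96, quartiles 1.69 and 2.27), beside 1.88 on 2R, 1.94 on 2L and 3L and 1.95 on 3R. The median −log10 q was 3.96 (3.37 to 4.32) on X and 2.72 to 3.17 by autosomal arm, with an overlap of intervals for 2R only. Since q becomes smaller as both levels rise at equal fold, these medians do not compare enrichment. The median ChIP level was 76.0 on X and 47.0 to 65.0 on the autosomal arms.

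Set beside autosomal peaks of like control level, X peaks had a higher median fold than the pooled autosomes in each band, although 3R, at 1.98, was above X from 1.5 to 2 times the floor. At the lowest level the medians were 2.38 on X (2.21 to 2.54, n = 35) and 2.16 on the autosomes (2.11 to 2.21, n = 236). Without the cluster the X median at that level was 2.27 (n = 32). Between the floor and 1.5 times it, the medians were 2.08 and 2.03, and from 1.5 to 2 times they were 1.97 and 1.89. They were 1.80 and 1.72 from 2 to 3 times and 1.70 and 1.65 above that. The intervals overlapped or met in all 5 bands, so the bands do not show a difference one by one, and no test over the bands was made. Over all bands the X median, 1.89, was below the pooled autosomal 1.93, while more X peaks sat at raised control, where folds were low on every arm.

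**Figure D3:**
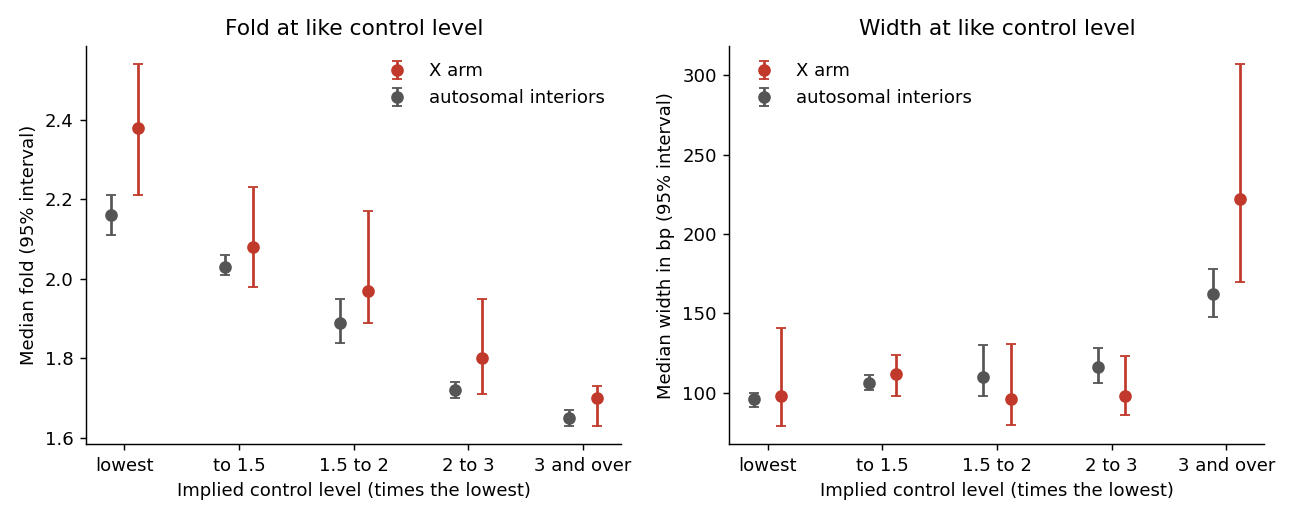
Median fold (left) and median width in bp (right) with exact order-statistic 95% intervals, for X and for the pooled autosomal interiors in 5 bands of implied control level. The X medians for fold lie above the autosomal ones in each band, with intervals that overlap or meet, and the widest median, 222 bp, is that of X peaks at 3 or more times the floor.

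ChIP levels on X reached the top of the scale more often. No peak in the list exceeded a ChIP level of 138, and 93 listed peaks, 10 of them on X, were at that value. If levels were capped there, folds at the top are lower bounds, which was not tested. A level of at least 130 was found at 40 X peaks (11.7%) and at 17 autosomal interior peaks (1.11%), with 0.285% to 2.75% by arm. In the whole list, which also holds the peaks beside the centromeres, it was 246 peaks (4.06%). The 40 X peaks had a median fold of 1.76 at a median control of 4.35 times the floor, and 28 of them were wide. They were unevenly placed, with 25 between 10 and 15 Mb, none from 15 Mb on, and 24 of the 40 in the regions of 5 or more peaks. At a ChIP level of 138, a fold of 3 cannot be reached once the control exceeds 2.59 times the floor. This held for 135 X peaks (39.4%) and for 24.9% of the autosomal interior peaks, so that shares of strong peaks compare arms with unequal room for them.

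**Figure D4:**
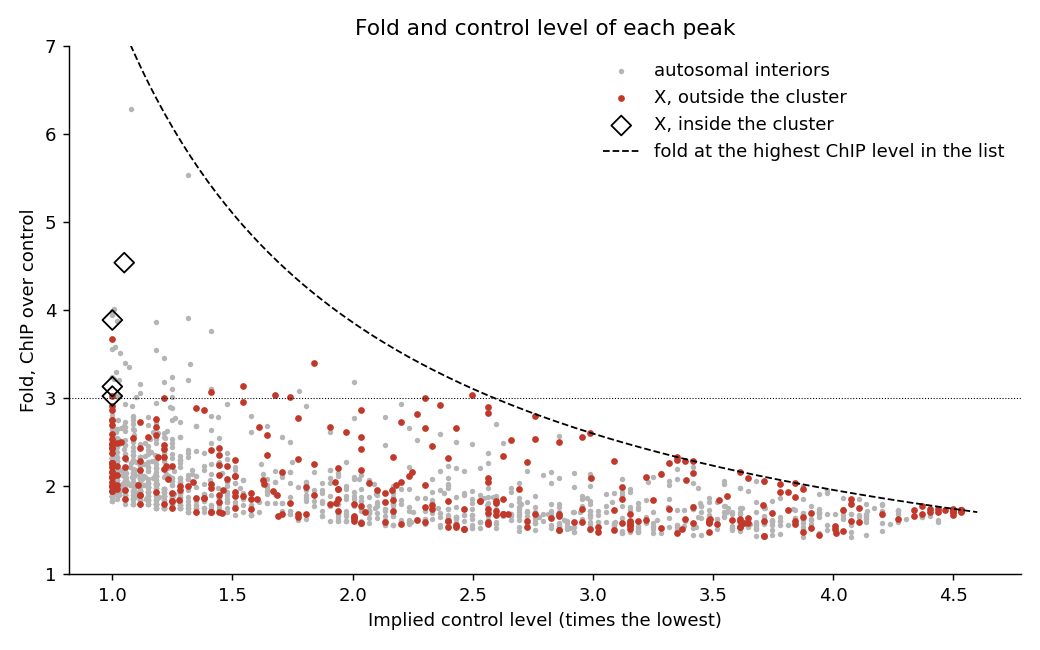
Fold of each peak against its implied control level for the autosomal interiors (grey), X outside the cluster (red) and the 4 cluster peaks (diamonds), with the fold that the highest ChIP level of 138 would give (dashed) and a fold of 3 (dotted). The cluster lies at the left edge, between 3.02 and 4.54, while the 10 X peaks on the dashed line lie at 2.99 to 4.53 times the lowest level.

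On X, 14 peaks were enriched at least 3-fold (4.08%, exact interval 2.25% to 6.75%), a share to set beside 2.42% in the autosomal interiors and 1.43% in the whole list. Their density was 0.686 per Mb on X and 0.419 per Mb on the autosomes, a ratio of 1.64 (0.818 to 3.10) that did not pass the test (exact binomial, adjusted p = 0.178). Without the cluster it was 1.17 (exact binomial test, adjusted p = 0.708). With the limit at 2.5, X had 51 peaks (14.9% of its peaks) and the autosomes 125 (8.18%). The density ratio was 1.77 (1.25 to 2.47, exact binomial test, adjusted p = 0.00192). A stretch of X from 8.9 to 10.2 Mb, 6.37% of the arm, held 41 peaks with a median fold of 2.51. Many of the 51 thus lay there. The ratio without that stretch was not computed, so whether 1.77 holds for the rest of the arm was not tested. Around the limit of 3, the weakest peak inside had a fold of 3.0 and the strongest outside 2.96.

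The 14 fell into different kinds. The 4 of the cluster and 2 others were wide and over low control. Those 2 were X 16321012 to 16321294 (283 bp, 3.67-fold, at the lowest control level) and X 15940584 to 15940802 (219 bp, 3.07-fold, 1.41 times the floor). The first stood 66539 bp from any other X peak. A further 6 were narrow and over raised control, with widths of 69 to 88 bp, folds from 3.0 to 3.40 and control at 1.54 to 2.5 times the floor. The strongest of them was X 9850285 to 9850358, 74 bp wide and 3.40-fold. The last 2, X 9519842 to 9519910 (69 bp, 3.02-fold) and X 9605040 to 9605221 (182 bp, 3.0-fold), were under 200 bp and over low control. In the autosomal interiors 26 of the 37 peaks of at least 3-fold were wide and 35 had low control. There, 1 of 37 peaks of at least 3-fold was under 100 bp with a control of 1.5 times the floor or more. At the limit of 2.5 this narrow, raised-control kind made up 22 of 51 X peaks (43.1%) and 6 of 125 autosomal ones (4.80%), 4 of them on 2R. Most of the 22 on X lay between 8.9 and 10.2 Mb, a stretch of 6.37% of the arm. This grouping was made after the values were seen and was given no test.

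Most of the X peaks ranked highest by significance were narrow, although the first was a wide peak of the cluster. Of the 20 X peaks with the highest −log10 q, 15 were under 100 bp wide and 18 had a control level of at least 1.5 times the floor. The 15 narrow ones were 69 to 98 bp wide with a median fold of 2.90, and their summits lay at 43.6% to 62.8% of the peak's width. The second of the 20, X 9996974 to 9997061, was 3.04-fold enriched at a ChIP level of 135, with −log10 q at 23.2. X 9775253 to 9775350 had the top ChIP level of 138 and a fold of 2.60. Both X 6100919 to 6101004 (2.90-fold) and its neighbour X 6101157 to 6101225 (3.03-fold) were among the 20. The 20 were spread unevenly, with 11 of them between 8.9 and 10.2 Mb, a stretch that makes up 6.37% of the X arm. That stretch held 41 peaks in 27 regions, with a median width of 83.0 bp, a median fold of 2.51 and a median control of 2.17 times the floor. Its limits were set after the values were seen.

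The cluster near 2.7 Mb held 4 of the 6 wide, low-control X peaks of at least 3-fold, and it was picked out for those values, so that its contrast with other X peaks is a description. It held 4 peaks within 6374 bp, of which they covered 3225 bp (50.6%). The first, X 2684302 to 2684537, spanned 236 bp at a ChIP level of 57 and was enriched 3.13-fold. The second, X 2684696 to 2685587, spanned 892 bp at a ChIP level of 71 and was enriched 3.89-fold. The third, X 2685666 to 2687232, spanned 1567 bp at a ChIP level of 87 and was enriched 4.54-fold. It was the widest of the 343 X peaks and had their highest fold and significance, with a −log10 q of 25.8. The last, X 2690146 to 2690675, spanned 530 bp at a ChIP level of 55 and was enriched 3.02-fold. The control level was at the lowest for the first, second and last and at 1.05 times it for the third, so these folds come with ChIP levels well below the top of the scale. The genes under the cluster were not looked up, and the sequence of the knock-in construct is not given in the sources used here. Reads from any construct copy of an X sequence cannot be told apart from reads of the X locus itself in the peak list, so whether the cluster reflects Atonal at this locus was not tested.

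**Figure D5:**
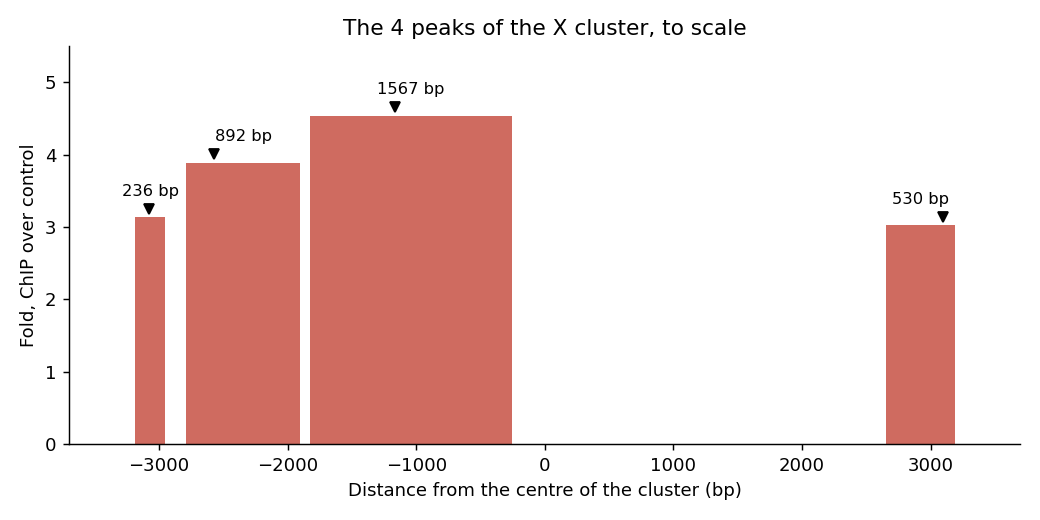
The 4 peaks of the X cluster drawn to scale by distance from the cluster's centre, with fold as bar height and summits as triangles. The left 3 peaks almost join, with gaps of 158 and 78 bp, and the last stands apart across 2913 bp without a peak.

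Spacing within the cluster was uneven. The first 3 peaks were separated by 158 and 78 bp, and together they fill most of the left part, while 2913 bp without a peak lie between the third and the last. Their summits, at 2684407, 2684916, 2686324 and 2690587, were 509, 1408 and 4263 bp apart. Summits were off centre in the second, which had its summit at base 221 of 892, and in the last, at base 442 of 530. The nearest peak to the left, 20785 bp away, was X 2663442 to 2663516, which was 75 bp wide and 3.02-fold over a control of 1.74 times the floor. It is of the narrow kind and among the 20 X peaks with the highest −log10 q. The nearest to the right, 50695 bp away, was X 2741371 to 2741522, which was 152 bp wide and 1.61-fold.

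Outside the cluster, the 339 other X peaks had a median width of 125 bp, a median fold of 1.89 and a median control of 2.23 times the floor. Their largest fold was 3.67 and 10 reached 3-fold, of which 7 were under 100 bp. The 32 of them at the lowest control level had a median width of 93.5 bp and were at most 283 bp wide, below 3 of the 4 cluster peaks. The 5 wide, low-control peaks outside it were 206 to 283 bp wide with folds of 2.47 to 3.67. They were X 131443 to 131648, X 1189447 to 1189691, X 11941728 to 11941987 and the pair at 15940584 and 16321012 named above. All 82 wide peaks outside the cluster had a median fold of 1.73 and a median control of 3.6 times the floor. The 77 of them without low control ran from 1.44 to 2.80 in fold, and 3 of these were among the 20 most significant X peaks. Those 3 were X 9409568 to 9409806 (239 bp, 2.80-fold), X 13684435 to 13684727 (293 bp, 2.66-fold) and X 9491514 to 9491732 (219 bp, 2.53-fold). Leaving the cluster out changed the call for none of the 6 densities.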

How the data were processed

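ChIP and input libraries (2 of each) were grouped by their titles. The submitters' processing notes name Bowtie2 2.2.1. Not given in the sources used here are the peak caller, the build and any pooling of libraries. The deposited list has no header and follows the narrowPeak layout. The deposited score is 10 times the −log10 q-value with decimals dropped, as checked in 100% of peaks. The deposited fold is the ratio of ChIP to control, the deposited −log10 p-value is the caller's, and the summit is given from the start. Starts were shifted to count from 1.

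Levels were solved from fold = (ChIP + 1)/(control + 1) and a Poisson upper tail, the MACS2 formula, and all 6065 peaks met both within 1e-04. The lengths used were 20.4 Mb for X and 88.4 Mb for autosomal interiors, from the last peak of each arm, so autosomal lengths are lower bounds. Density ratios were tested two-sided by the exact binomial test, with Clopper-Pearson 95% intervals and Benjamini-Hochberg adjustment over 6 counts or 4 arms (scipy 1.17.1). Shares have Clopper-Pearson intervals and medians order-statistic ones. Scripts were tested on simulated data. Named peaks were those of the cluster, the 20 with the highest −log10 q, the 5 widest and the fullest regions, and others named were chosen after their values were seen. Members, limits and tests were chosen with earlier results of these data known.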

Additional observations from a re-analysis of the deposited data

How the results depend on the processing

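Among 52 tested alternatives, 33 stayed on the same side of the threshold in the same direction. With 3 Mb left out beside the autosomal centromeres, the ratio for all peaks was 1.04 pooled, 1.02 against 2L and 1.24 against 2R. With 1 Mb left out it was 0.818, and that for wide peaks 1.11. With the score limit at the median, the ratios were 1.44 for all peaks, 1.13 for merged regions, 1.20 at the lowest control level and 0.835 under 1.5 times it, and the X medians were 140 bp for width, 2.22 for fold and 6.23 for −log10 q. Merging within 500 bp gave 0.777 pooled, 0.726 against 2L, 0.793 against 2R, 0.834 against 3L and 0.764 against 3R for all peaks, each of which then passed the test, and 0.883 for wide peaks. No peaks touch, so merging only touching ones gave 0.972. A fold limit of 2.5 gave 1.77. Leaving out regions of 5 or more peaks, an alternative chosen after seeing the data, gave 1.13 for wide peaks and 0.986 for all peaks against 3L. The cause was not tested, although the 3 Mb and 1 Mb limits drop or add autosomal peaks and merging removes crowded ones by how they are built. No paired analysis was possible because single libraries have no values in the list, and for the same reason no replicate could be left out. Library depth is unknown.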
